A study of Mus musculus with 14 samples.

Results

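The genes described here are the mouse matrix proteases and their inhibitors, chosen by gene symbol: every gene of the count table named as a matrix metalloproteinase (Mmp), a tissue inhibitor of metalloproteinases (Timp), an ADAMTS protease (Adamts) or an ADAMTS-like protein (Adamtsl). The rule took 51 of 49315 genes, of which 23 were MMP genes, 4 TIMP genes, 19 ADAMTS genes and 5 ADAMTS-like genes. They were followed in heart-tissue RNA of male wild-type C57BL/6 mice kept on standard chow, at 68 weeks of age (4 libraries) and at 12 weeks of age (4 libraries). The same study profiled H3K27me3, a histone mark associated with gene silencing, by CUT&RUN, in which an antibody directs the cutting and release of bound chromatin, with 2 libraries and 1 input library per age. Nothing in the labels says that each library is its own animal, and the p-values therefore reflect library-to-library spread.

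The heart's extracellular matrix is a network of fibrillar collagens, fibronectin, proteoglycans and elastic microfibrils, made largely by fibroblasts. MMPs and ADAMTS enzymes are zinc proteases that cut these components: MMPs cleave collagens, gelatin and glycoproteins, while ADAMTS enzymes trim procollagens and cleave proteoglycans such as versican and aggrecan. TIMPs bind the active sites of MMPs and block them, and Timp3 also acts on ADAMTS enzymes. ADAMTS-like proteins share the binding modules of ADAMTS proteins but lack the protease domain.

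RNA values were counts of reads per gene, with 28842059 to 34599121 counts per library at 68 weeks and 23599296 to 31662601 at 12 weeks. Cardiomyocyte markers took 6.6% to 7.07% of the counts at 68 weeks and 6.01% to 7.36% at 12 weeks. Markers of airway epithelium split the libraries: without Tppp3, a marker with 16.6 to 34.6 CPM in all 8 libraries, the list summed to 1056 CPM in replicate 3 at 68 weeks and to 563.8 to 1672 CPM in replicates 1, 2 and 3 at 12 weeks, against 1.99 to 2.85 CPM in the other libraries at 68 weeks and 31.7 CPM in replicate 4 at 12 weeks. With Tppp3, which makes up most of the sum in the low libraries at 68 weeks, the sums were 1089 CPM, 595 to 1705 CPM, 19.1 to 30.5 CPM and 66.3 CPM in the same order. Of the 17 airway markers tested by edgeR, 0 were called by age and 4 had an unadjusted p under 0.05. DESeq2 called 1 marker of the list lower, Tff2, which edgeR did not test. CPM are counts scaled to the library size as normalised by edgeR's TMM method. Mitochondrial genes took 10.1% to 12.1% of counts at 68 weeks and 7.41% to 11.5% at 12 weeks. The airway split runs partly along age, so age results are also given with the summed airway markers in the model and within each set of libraries. In whole-tissue RNA, fewer cells of a type and less RNA per cell cannot be told apart.

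The 51 genes together took 0.113% to 0.124% of all counts. Of these, 39 had enough counts to be tested by edgeR and 12 did not. Mmp1a, Mmp1b, Mmp7, Mmp10 and Mmp20 had 0 counts in all 8 libraries, where a count of 0 allows up to 3 counts, or 0.0867 to 0.127 CPM of a library's total. Mmp8, the neutrophil collagenase, had 1 to 20 counts per library, 17 in all at 68 weeks and 38 in all at 12 weeks. Mmp25 had 2 to 11 counts per library, Mmp27 4 to 11, Mmp21 0 to 4, Adamts13 0 to 3, Adamts18 0 to 2 and Adamts16 0 or 1. These genes were too sparse for a comparison of the ages at this depth, and such intervals and limits cover counting error only.

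Levels were compared between genes per exon length, as RPKM, which divides CPM by the exon length in kilobases. Timp2 was the most abundant member, at 43.4 ± 2.75 RPKM at 68 weeks and 40.7 ± 2.65 RPKM at 12 weeks (SD, n = 4 each, as for all such values). Mmp15, a membrane-type MMP, followed with 30.0 RPKM at 68 weeks and 28.2 RPKM at 12 weeks, then Timp3 with 29.9 and 25.1 RPKM, Adamtsl5 with 26.3 and 19.3 RPKM and Mmp2 with 16.5 and 18.7 RPKM, each at 68 and then 12 weeks. Adamtsl4 and Adamts1 were the next highest. The collagenases sat near the bottom of the range, with Mmp13 at 0.15 RPKM at 68 weeks and 0.292 RPKM at 12 weeks. Summed over the family, TIMP transcripts came to 84.3 ± 5.23 RPKM at 68 weeks and 75 ± 2.64 RPKM at 12 weeks, MMP transcripts to 68 ± 3 and 68.2 ± 1.42 RPKM, and ADAMTS transcripts to 40.7 ± 1.62 and 41.9 ± 1.32 RPKM. The TIMP sums of both ages overlapped, since replicate 2 at 68 weeks had 76.6 RPKM and replicate 2 at 12 weeks had 77.6 RPKM.

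**Figure D1:**
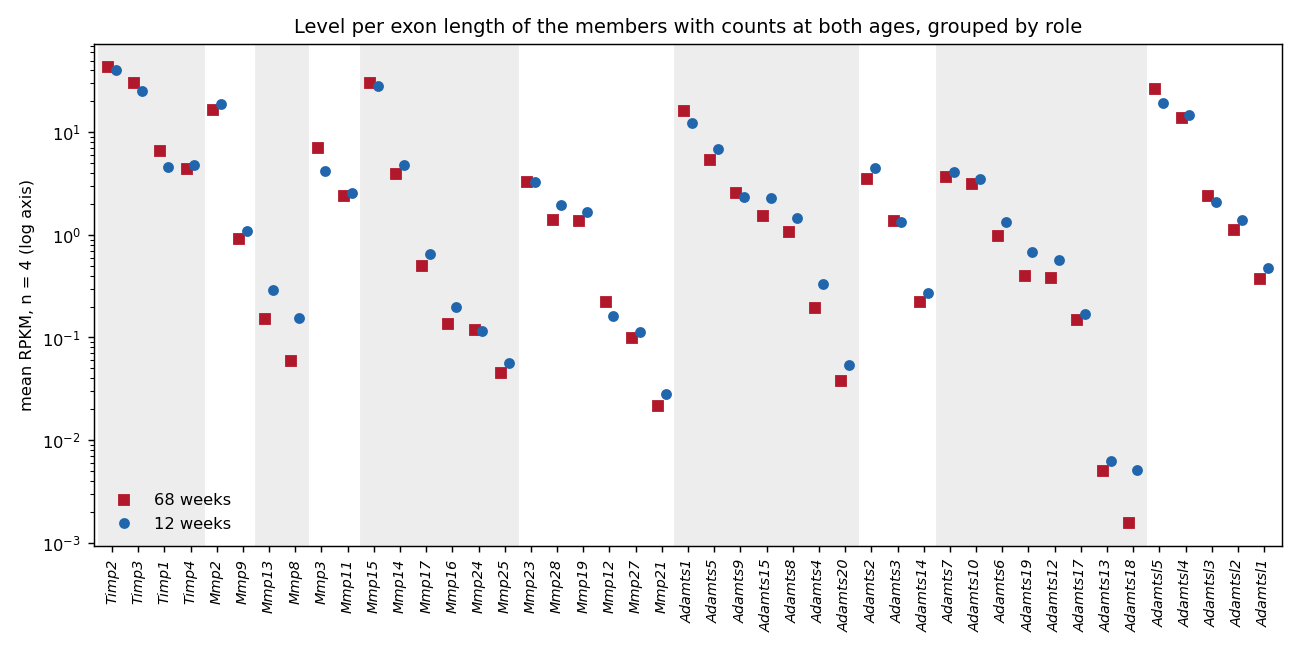
Mean level per exon length (RPKM, log axis, n = 4 per age) of the members with counts at both ages, in shaded blocks by role, with squares for 68 weeks and circles for 12 weeks. Timp2, Mmp15, Timp3, Adamtsl5 and Mmp2 lead, and Adamts13 and Adamts18 have the lowest levels drawn.

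The 2 ages were compared gene by gene. At an adjusted p of 0.05 (edgeR quasi-likelihood test, Benjamini-Hochberg over 15947 genes), 3 of the 39 tested members were higher at 68 weeks, Adamtsl5, Timp3 and Adamts1, and 3 were lower, Adamts15, Mmp28 and Adamts2. Over all genes tested, 1.61% were called higher and 1.22% lower. The 6 changes were modest, between 0.666-fold and 1.36-fold. The other 33 tested members did not pass, although 17 of 39 (43.6%) had an unadjusted p under 0.05 in that test, as did 19% of all genes tested. Of the tested members, 13 (33.3%) had a log2 fold change above 0 and 26 below 0, where 47.9% of all genes tested were above 0. The members had a median log2 fold change of -0.19, beside -0.0082 for all genes tested. The number of members with all 4 libraries at 68 weeks above all 4 at 12 weeks was 3, the called ones, where 6.26% of all tested genes did so. It was 7 in the other direction, Adamts15, Mmp28, Adamts2, Adamts6, Mmp16, Mmp19 and Adamtsl1, where 5.86% of all genes did so.

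**Figure D2:**
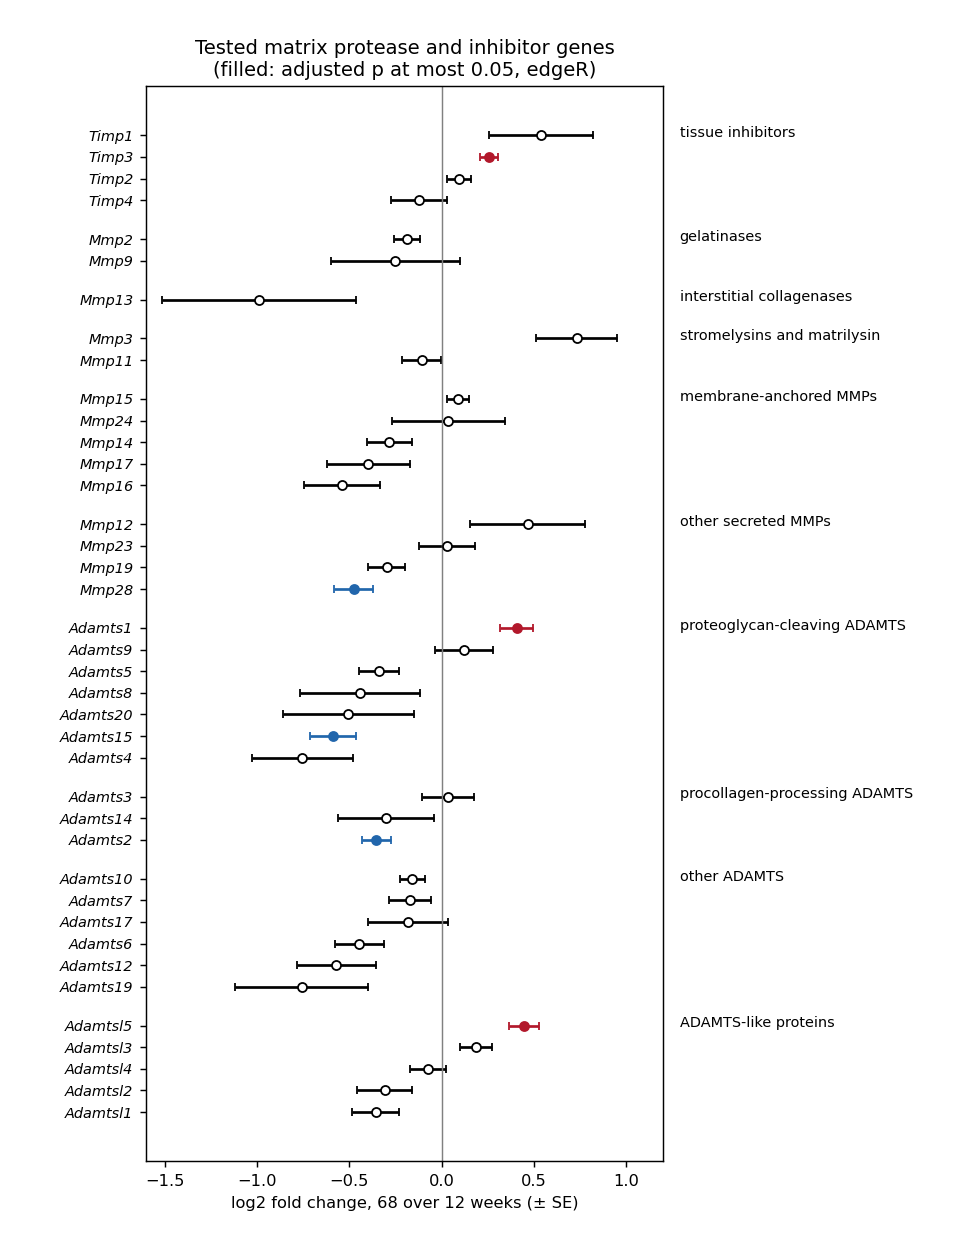
Log2 fold change of each tested member (68 weeks minus 12 weeks, edgeR, with SE bars), grouped by role; filled points passed an adjusted p of 0.05. Of the points, 26 lie below 0 and 13 above (33.3%, where 47.9% of all genes tested are above 0), and the 6 filled points lie in 5 role groups.

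The calls changed when single libraries were left out, and so did the share of all genes called. Without replicate 1, 3 or 4 at 68 weeks, Adamtsl5 was called higher and 0 members lower, where 1.05%, 1.05% and 0.734% of all genes were called higher and 0.506%, 0.957% and 0.321% lower in the same order. Without replicate 2 at 68 weeks, 3 were called higher, Adamtsl5, Timp3 and Mmp3, and 1 lower, Adamts15, where 0.858% and 0.417% of all genes were. Without replicate 1 or 2 at 12 weeks, 0 members were called, with 16 and 18 at an unadjusted p under 0.05, where 0.742% and 0.723% of all genes were called higher and 0.343% and 0.5% lower. Without replicate 3 at 12 weeks Timp3 was called alone (0.862% of all genes higher, 0.456% lower), and without replicate 4 at 12 weeks Adamts15 was (1.28% higher, 0.766% lower).

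With the summed airway markers in the model, 0 members were called in either direction by edgeR and 11 had an unadjusted p under 0.05, where 0.426% and 0.119% of all genes were called higher and lower. Without Tppp3 in the sum, an alternative chosen after seeing the data, 0 were called and 10 had an unadjusted p under 0.05, where 0.27% and 0.0376% of all genes were called. With replicate number as a block, 0 members were called and 17 had an unadjusted p under 0.05, where 0.702% and 0.301% of all genes were called. Within the set low in airway markers (3 libraries at 68 weeks against 1 at 12 weeks) and the set high in them (1 against 3), 0 members were called by edgeR, with 10 at an unadjusted p under 0.05 in each. Few genes were called at all within these sets, 0.0606% higher and 0.139% lower in the low set and 0.0232% and 0.00581% in the high set. The log2 fold changes in the low and high sets were 0.53 and 0.35 for Adamtsl5, 0.26 and 0.26 for Timp3, 0.35 and 0.34 for Adamts1, -0.46 and -0.48 for Adamts15, -0.76 and -0.25 for Mmp28, and -0.23 and -0.39 for Adamts2. In each set 1 age has a single library, which is assumed to vary like the others. All 6 log2 fold changes kept their sign in every alternative. In fits on fewer libraries this follows largely from the lack of overlap between the ages for these 6 genes, and is not separate support. DESeq2 called 4 members higher and 3 lower, where it called 3.46% and 2.67% of its genes, and the added one was Mmp3.

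**Figure D3:**
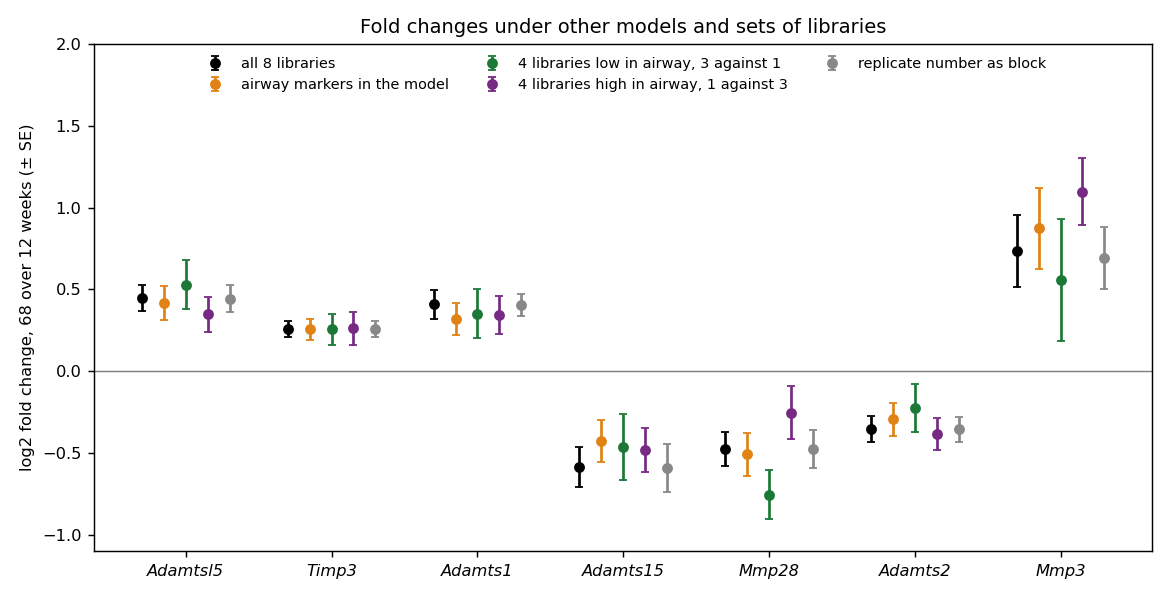
Log2 fold changes (68 weeks minus 12 weeks) with SE bars, for the 6 called members and Mmp3: in the model of age alone, with summed airway markers in the model, within the libraries low (3 against 1) or high (1 against 3) in those markers, and with replicate number as a block. No point crosses 0, and Adamtsl5 lies between 0.35 and 0.53. The ages do not overlap for the 6 called members, so their signs within the sets of libraries are not separate support.

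Adamtsl5, which has no protease domain and binds the fibrillin microfibrils of elastic tissue, had 116, 118, 117 and 146 CPM in the 4 libraries at 68 weeks, against 85.3, 96.8, 94.8 and 87.9 CPM at 12 weeks. Every library at 68 weeks was above every library at 12 weeks, and replicate 4 at 68 weeks stood well above the rest. Its level was 1.36-fold higher at 68 weeks (log2 fold change 0.45 ± 0.08 SE, adjusted p = 0.0252, edgeR), 124 ± 14.4 CPM against 91.2 ± 5.45 CPM. It was called in 4 of the 8 fits that left out a library, with a log2 fold change of 0.36 to 0.48. With airway markers in the model it was 0.42 ± 0.10 with an adjusted p of 0.141. Over 17 alternatives its adjusted p ranged from 2.58e-05 to 0.597. The gene lies at chr10:80339110-80348412 (mm10).

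Timp3 encodes the inhibitor that stays bound to the matrix and acts on MMPs, ADAMs and ADAMTS enzymes. Its libraries held 243, 232, 244 and 256 CPM at 68 weeks, against 202, 197, 214 and 204 CPM at 12 weeks. The groups did not overlap, and the libraries of each age lay close together. Timp3 was 1.19-fold higher at 68 weeks (log2 fold change 0.26 ± 0.05 SE, adjusted p = 0.0308, edgeR). It held in 2 of 8 leave-one-out fits at log2 fold changes of 0.24 to 0.28. On library size alone, without TMM scaling, Timp3 lost its call (log2 fold change 0.198, adjusted p = 0.0642, edgeR). With airway markers in the model the log2 fold change was 0.25 and the adjusted p was 0.151, and over 17 alternatives the adjusted p ran from 1.6e-05 to 0.728. Timp3 (chr10:86300372-86349506) lies within Syn3 on the other strand, and 21.3% of its exon bases are shared with that gene, which had 236 counts in all 8 libraries together, and the strand setting of the counting is not given in the sources used here.

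Adamts1, a protease of versican and aggrecan, had 80.7, 80.8, 80.0 and 101 CPM at 68 weeks, against 57.5, 63.6, 68.4 and 68.7 CPM at 12 weeks. Replicates 1, 2 and 3 at 68 weeks were nearly level, replicate 4 was higher, and all 4 were above the 12-week libraries. Adamts1 was 1.33-fold higher at 68 weeks (log2 fold change 0.41 ± 0.09 SE, adjusted p = 0.0455, edgeR). No leave-one-out fit called it, with log2 fold changes of 0.32 to 0.44, and with airway markers in the model it stood at 0.32 with an adjusted p of 0.235. Its adjusted p ran from 0.00086 to 0.669 over 17 alternatives. Adamts1 lies at chr16:85793827-85803113.

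Adamts15, another proteoglycan-cleaving member, had 16.5, 11.9, 17.5 and 16.8 CPM at 68 weeks, against 24.7, 26.8, 22.0 and 20.9 CPM at 12 weeks. The groups were apart, with replicate 2 at 68 weeks the lowest library. Its level at 68 weeks was 0.666 of that at 12 weeks (log2 fold change -0.59 ± 0.12 SE, adjusted p = 0.0423, edgeR). It was called in 2 of 8 leave-one-out fits. With airway markers in the model it was -0.43 with an adjusted p of 0.224, and over 17 alternatives the adjusted p ran from 0.000522 to 0.557. The gene, at chr9:30899155-30922452, lies 20109 bases from Adamts8.

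Mmp28, also called epilysin, is a secreted MMP whose libraries held 5.13, 5.62, 5.93 and 4.94 CPM at 68 weeks, against 6.72, 7.15, 7.40 and 8.85 CPM at 12 weeks. The highest library at 68 weeks was below the lowest at 12 weeks. Mmp28 fell by 0.48 ± 0.11 (SE) on the log2 scale at 68 weeks (adjusted p = 0.0482, edgeR). No leave-one-out fit called it, and with airway markers in the model it was -0.51 with an adjusted p of 0.169, with adjusted p-values from 0.0143 to 0.894 over 17 alternatives. The gene lies at chr11:83440768-83463071, and 12.0% of its exon bases are shared with the gene 1700020L24Rik on the other strand.

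Adamts2, which removes the amino-terminal propeptide of fibrillar procollagens, had 34.9, 28.1, 33.1 and 35.8 CPM at 68 weeks, against 44.4, 41.3, 44.1 and 38.6 CPM at 12 weeks. The lowest 12-week library stood above every library at 68 weeks. Adamts2 fell by 0.35 ± 0.08 (SE) on the log2 scale at 68 weeks, with an adjusted p of 0.0499 in edgeR, near the threshold. It lost its call with another normalization of library size (DESeq2's size factors in edgeR, adjusted p = 0.0505) and in every leave-one-out fit, and with airway markers in the model it was -0.30 with an adjusted p of 0.266. Its adjusted p ran from 0.00466 to 0.689 over 17 alternatives. Of 11 fibroblast markers tested, 2 were lower in edgeR, Col1a1 and Pi16, 7 had an unadjusted p under 0.05, and DESeq2 called 6 lower. Their log2 fold changes were below 0 in 8 and above 0 in 3, Lum at 0.33, Dpt at 0.13 and Dcn at 0.07. The list summed to 2085 to 2522 CPM at 68 weeks and 2789 to 2998 CPM at 12 weeks, and without Gsn, its most abundant gene, to 1105 to 1407 CPM and 1523 to 1742 CPM, without overlap. Their part in the result was not tested.

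**Figure D4:**
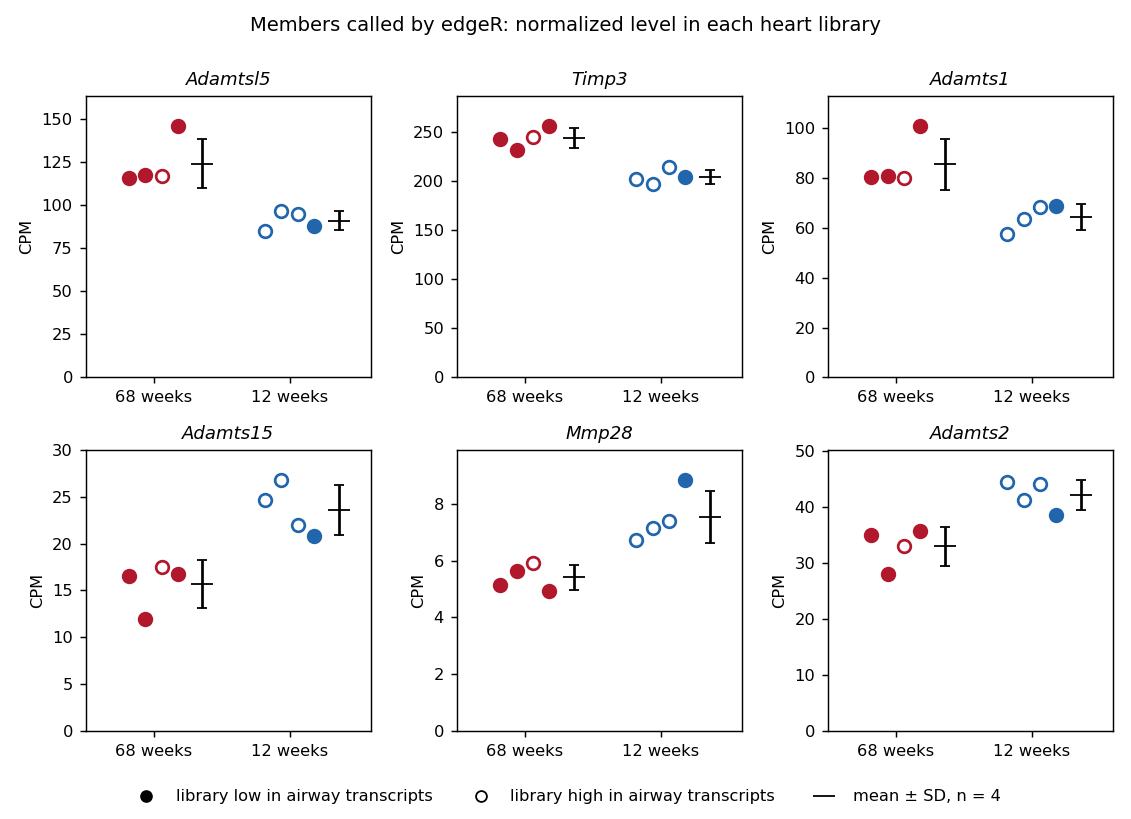
Normalised level (CPM) of the 6 called members in each library, at 68 weeks on the left and 12 weeks on the right of each panel, with the mean and SD (n = 4). Open points are libraries high in airway transcripts; in each panel the ages do not overlap.

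RefSeq promoter entries (GRCm38.p6, the 250 bases before the annotated start) were matched to 36 of the 51 genes by symbol, giving 39 entries. They are shown for the called members with an entry and for Mmp3, to let the contrast between GC-rich and AP-1-bearing promoters be read in the sequence. Letters are 5′ to 3′ on the gene's strand, and capitals mark a GC box (GGGCGG on either strand) or an AP-1 site (TGANTCA on either strand).
Timp3: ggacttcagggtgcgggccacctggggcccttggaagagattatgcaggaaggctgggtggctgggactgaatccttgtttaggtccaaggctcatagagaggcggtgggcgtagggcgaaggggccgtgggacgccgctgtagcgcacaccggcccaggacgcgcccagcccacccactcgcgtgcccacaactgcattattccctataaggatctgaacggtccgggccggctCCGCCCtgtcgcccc
Adamtsl5: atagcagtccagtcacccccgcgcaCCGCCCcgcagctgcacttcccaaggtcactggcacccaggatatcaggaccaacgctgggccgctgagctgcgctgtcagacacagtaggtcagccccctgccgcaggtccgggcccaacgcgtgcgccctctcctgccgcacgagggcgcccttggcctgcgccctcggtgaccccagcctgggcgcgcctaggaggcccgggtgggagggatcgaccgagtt
Adamts1: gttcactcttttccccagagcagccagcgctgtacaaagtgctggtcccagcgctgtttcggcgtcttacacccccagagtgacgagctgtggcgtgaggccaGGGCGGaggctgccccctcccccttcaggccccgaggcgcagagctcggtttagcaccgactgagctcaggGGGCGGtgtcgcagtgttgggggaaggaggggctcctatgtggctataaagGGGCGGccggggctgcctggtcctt
Mmp28: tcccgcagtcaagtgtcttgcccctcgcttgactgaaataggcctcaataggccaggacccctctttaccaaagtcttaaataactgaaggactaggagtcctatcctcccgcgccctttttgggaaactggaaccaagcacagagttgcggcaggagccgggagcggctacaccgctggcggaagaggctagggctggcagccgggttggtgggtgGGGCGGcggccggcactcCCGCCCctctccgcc
Adamts2: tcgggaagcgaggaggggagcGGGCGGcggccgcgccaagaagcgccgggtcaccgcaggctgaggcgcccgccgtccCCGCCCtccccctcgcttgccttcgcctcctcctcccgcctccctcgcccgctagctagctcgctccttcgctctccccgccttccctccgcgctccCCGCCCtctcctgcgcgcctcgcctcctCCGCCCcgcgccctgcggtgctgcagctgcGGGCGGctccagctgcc
Mmp3: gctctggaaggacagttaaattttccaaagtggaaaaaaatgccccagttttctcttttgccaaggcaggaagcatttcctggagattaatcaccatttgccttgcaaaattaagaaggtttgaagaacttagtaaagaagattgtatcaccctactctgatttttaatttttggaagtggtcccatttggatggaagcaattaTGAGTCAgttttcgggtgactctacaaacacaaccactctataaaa

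These lie at chr10:86300162-86300411 (plus strand) for Timp3, chr10:80348449-80348698 (minus) for Adamtsl5, chr16:85803114-85803363 (minus) for Adamts1, chr11:83463041-83463290 (minus) for Mmp28, chr11:50601835-50602084 (plus) for Adamts2 and chr9:7445572-7445821 (plus) for Mmp3. The Adamts1, Adamts2 and Mmp28 windows held 3, 5 and 2 GC boxes, and those of Timp3 and Adamtsl5 held 1 each. The Mmp3 window held no GC box, 1 AP-1 site that begins 46 bases before the start, and a TATA box (TATAAA) that begins 7 bases before it. The Adamts1 window also held a TATA box, 32 bases before the start. Over all 39 member entries, AP-1 letters were present in 8 (20.5%), against 6.75% of 32851 promoters, and GC boxes in 20 (51.3%), against 32.7%. The CAAT box (CCAAT) was in 8 (20.5%), against 33.8%, and the TATA box in 10 (25.6%), against 12.4%. Most TATA matches lay in the MMP cluster of chromosome 9, in Mmp1a, Mmp1b, Mmp3, Mmp7, Mmp10, Mmp13 and Mmp20. The others were in Adamts1, Adamtsl2 and Mmp21. A match describes the letters and is not a bound site.

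All 8 AP-1 matches lay in the MMP cluster of chromosome 9, in promoters of 8 of its 10 genes, and 0 of the 27 other member promoters had one. The cluster spans chr9:7272514-7699585. Its promoters were poor in CpG, with a median of 1 CpG dinucleotide per window against 15 in the other member promoters and 6 over all promoters. Of its 10 genes, 5 had 0 counts in every library and 3 were tested, Mmp3, Mmp12 and Mmp13.

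Among the inhibitors, only Timp3 passed the test. Timp2, which with Mmp14 also takes part in activating pro-Mmp2, had 179.5, 156, 176 and 166 CPM at 68 weeks, against 154, 174, 153 and 154 CPM at 12 weeks, and the groups overlapped. Its log2 fold change was 0.10 ± 0.06 SE (adjusted p = 0.452, edgeR). Timp1, an inhibitor induced in injured tissue, had 5.33, 3.03, 6.61 and 8.54 CPM at 68 weeks, against 3.51, 3.45, 3.96 and 5.34 CPM at 12 weeks. Its spread at 68 weeks was wide, and the log2 fold change of 0.54 ± 0.28 SE did not pass (adjusted p = 0.333). Timp4, the inhibitor enriched in heart, had 22.2, 28.2, 24.9 and 27.5 CPM at 68 weeks, against 19.3, 29.4, 33.6 and 29.9 CPM at 12 weeks (log2 fold change -0.12 ± 0.15 SE, adjusted p = 0.702). Over the 4 inhibitors the median log2 fold change was 0.18.

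**Figure D5:**
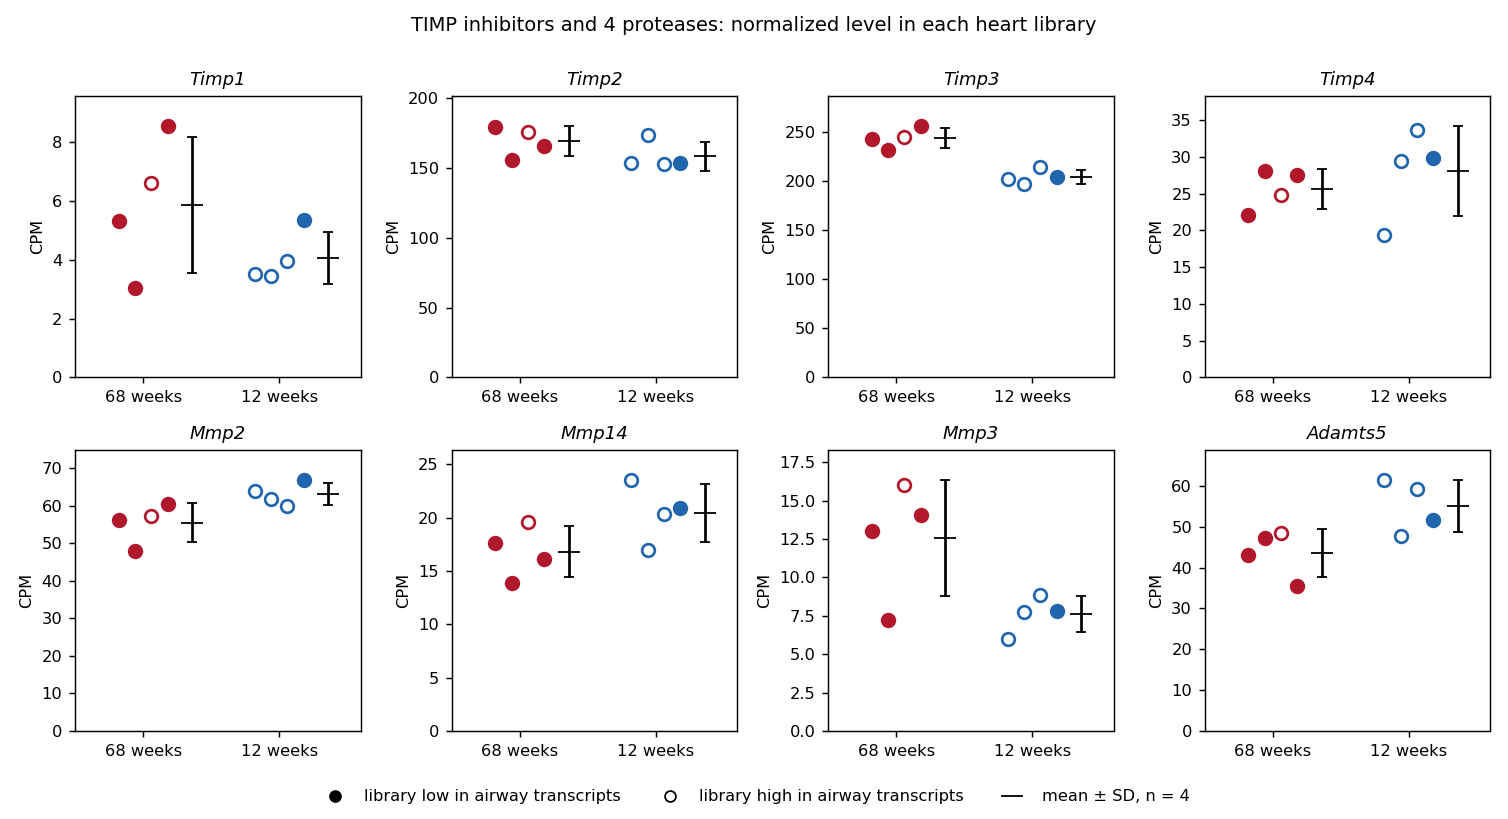
Normalised level (CPM) per library of the 4 inhibitors and of Mmp2, Mmp14, Mmp3 and Adamts5, with the mean and SD (n = 4), 68 weeks left of 12 weeks and open points for libraries high in airway transcripts. The ages overlap in every panel other than Timp3.

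Of the gelatinases, which digest denatured collagen, Mmp2 had 56.3, 48.0, 57.2 and 60.4 CPM at 68 weeks, against 63.9, 61.8, 59.8 and 66.9 CPM at 12 weeks. The ages overlapped by a narrow margin at 60.4 and 59.8 CPM, and the log2 fold change of -0.19 ± 0.07 SE did not pass (adjusted p = 0.201, edgeR). Mmp9, stored by neutrophils, had 3.81, 2.24, 4.22 and 2.65 CPM at 68 weeks, against 1.89, 4.20, 6.46 and 3.00 CPM at 12 weeks (log2 fold change -0.25 ± 0.35 SE, adjusted p = 0.743). Neutrophil markers summed to 5.56 to 169.5 CPM at 68 weeks and 14.4 to 108 CPM at 12 weeks, and most of the high sums came from Ltf, at 159.6 CPM in replicate 3 at 68 weeks and 102 CPM in replicate 1 at 12 weeks, both libraries high in airway markers. Without Ltf the sums were 5.53 to 9.93 CPM at 68 weeks and 5.77 to 32.5 CPM at 12 weeks. Of 6 tested, 0 were called by edgeR, 4 had an unadjusted p under 0.05 and DESeq2 called 4 lower, and Camp, Elane, Ltf, Mpo and Ngp were at 0 in at least 1 library. Their part in the values of Mmp9 and Mmp8 was not tested. Mmp13, a collagenase, had 0.53, 0.433, 0.58 and 0.0595 CPM at 68 weeks, against 1.21, 0.934, 0.473 and 0.505 CPM at 12 weeks (log2 fold change -0.99 ± 0.53 SE, adjusted p = 0.345).

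The stromelysin Mmp3, which cleaves proteoglycans and activates other MMPs, had 13.0, 7.21, 16.0 and 14.0 CPM at 68 weeks, against 6.01, 7.76, 8.87 and 7.80 CPM at 12 weeks. Replicate 2 at 68 weeks lay among the 12-week libraries, and the other three lay above them. Its log2 fold change of 0.73 ± 0.22 SE was the largest above 0 among the tested members and missed the threshold in edgeR (adjusted p = 0.113). It passed in DESeq2 (adjusted p = 0.0159) and in edgeR without replicate 2 at 68 weeks, which are 2 of 17 alternatives, and over all 17 the adjusted p ran from 0.0159 to 0.703. Mmp11, grouped with the stromelysins, was at -0.11 ± 0.11 SE (adjusted p = 0.629).

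Of the MMPs grouped here as membrane-anchored, 0 of 5 tested passed in edgeR or in DESeq2, and 2 had an unadjusted p under 0.05 in edgeR. Mmp15 had 156, 174, 153 and 164 CPM at 68 weeks, against 159.5, 161, 144 and 144 CPM at 12 weeks (log2 fold change 0.09 ± 0.06 SE, adjusted p = 0.466). Mmp14, the activator of pro-Mmp2, had 17.6, 13.9, 19.6 and 16.1 CPM at 68 weeks, against 23.5, 16.9, 20.3 and 20.9 CPM at 12 weeks, and the groups overlapped (log2 fold change -0.28 ± 0.12 SE, adjusted p = 0.243). Mmp16 separated by age, with 1.26, 0.793, 1.35 and 1.31 CPM at 68 weeks and 1.47, 2.05, 1.64 and 1.73 CPM at 12 weeks, yet did not pass (log2 fold change -0.54 ± 0.21 SE, adjusted p = 0.198). Mmp24 was at 0.04 ± 0.31 SE (adjusted p = 0.964), and 13.6% of its exon bases are shared with BC029722 on the other strand. Mmp17 had 3.21, 3.75, 3.32 and 2.98 CPM at 68 weeks, against 5.63, 5.60, 2.80 and 3.32 CPM at 12 weeks. Its 12-week libraries fell into a high and a low pair, and its log2 fold change was -0.40 ± 0.23 SE (adjusted p = 0.374).

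The remaining MMPs held 4 tested genes, of which Mmp28 alone passed. Mmp23 was at 0.03 ± 0.15 SE (adjusted p = 0.938, edgeR). Mmp19, which cleaves basement membrane proteins, had no overlap between the ages, at 4.43 to 4.82 CPM at 68 weeks against 4.89 to 6.32 CPM at 12 weeks, and did not pass (log2 fold change -0.30 ± 0.10 SE, adjusted p = 0.153). Of its exon bases, 23.1% are shared with Tmem198b on the other strand. Mmp12, the macrophage elastase, was at 0.47 ± 0.31 SE (adjusted p = 0.454), with 2.75 CPM in replicate 1 at 68 weeks and 0.922 to 1.51 CPM in the other libraries at 68 weeks, against 1.08 to 1.30 CPM at 12 weeks.

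Among the proteoglycan-cleaving ADAMTS genes, Adamts5, the main aggrecanase of cartilage, had 43.0, 47.2, 48.5 and 35.4 CPM at 68 weeks, against 61.4, 47.7, 59.3 and 51.7 CPM at 12 weeks. Its groups overlapped by 1 library, and the log2 fold change of -0.34 ± 0.11 SE did not pass (adjusted p = 0.135, edgeR). Adamts1 and Adamts5 are neighbours on chromosome 16, 55056 bases apart. The ratio of their RPKM, chosen after their values were seen and given without a test, was 2.87, 2.61, 2.52 and 4.35 at 68 weeks, against 1.43, 2.04, 1.76 and 2.03 at 12 weeks. The ratio of Adamts5 to Timp3, its inhibitor, was 0.178, 0.205, 0.2 and 0.14 at 68 weeks, against 0.307, 0.244, 0.279 and 0.255 at 12 weeks. Neither pair of groups overlapped, but Adamts1 and Timp3 already did so on their own, without overlap between the ages. These ratios are therefore not separate results, and none of the ratios was tested. Of 7 ratios computed, the other 5 overlapped between the ages: Mmp2 to Timp2 averaged 0.379 ± 0.0295 at 68 weeks and 0.462 ± 0.04 at 12 weeks, Mmp14 to Timp2 0.0897 ± 0.0082 and 0.118 ± 0.0213, and Mmp9 to Timp1 0.151 ± 0.0497 and 0.248 ± 0.134. Those with the larger mean at 68 weeks were Adamts1 to Timp3, at 0.539 ± 0.0471 against 0.486 ± 0.0335 at 12 weeks, and Timp3 to Timp2, at 0.69 ± 0.0421 against 0.619 ± 0.0551.

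The other proteoglycan-cleaving genes did not pass. Adamts4, an aggrecanase, had 0.695, 0.685, 1.10 and 1.25 CPM at 68 weeks, against 1.62, 1.04, 1.68 and 1.99 CPM at 12 weeks. The groups overlapped because replicate 2 at 12 weeks lay below 2 libraries of the older hearts, and the log2 fold change was -0.75 ± 0.27 SE (adjusted p = 0.176, edgeR). Adamts8, an aggrecanase, was spread widely at both ages, from 2.74 to 7.09 CPM at 68 weeks and from 3.43 to 8.74 CPM at 12 weeks. Adamts9, which cleaves versican, ran from 32.2 to 46.1 CPM at 68 weeks and from 27.9 to 45.8 CPM at 12 weeks (log2 fold change 0.12 ± 0.16 SE, adjusted p = 0.719). Adamts20, also a versican-cleaving protease, stayed under 1 CPM in every library. Over the 7 genes the log2 fold changes ran from -0.75 to 0.41, with a median of -0.44, and 4 had an unadjusted p under 0.05.

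The procollagen-processing members were Adamts2, above, with Adamts3 at 0.03 ± 0.14 SE (adjusted p = 0.924, edgeR) and Adamts14 at -0.30 ± 0.26 SE (adjusted p = 0.568). Adamts3 and Adamts14 are, like Adamts2, procollagen amino-propeptidases. Summed per exon length the 3 genes came to 5.13 ± 0.342 RPKM at 68 weeks and 6.13 ± 0.551 RPKM at 12 weeks, and the sums overlapped by 1 library.

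The other ADAMTS genes summed to 8.70 ± 0.598 RPKM at 68 weeks and 10.4 ± 0.316 RPKM at 12 weeks. The highest library at 68 weeks had 9.4 RPKM and the lowest at 12 weeks 10.0 RPKM. Of the 6 tested other ADAMTS genes, all 6 had a log2 fold change below 0, with a median of -0.31, and 0 passed in edgeR or DESeq2, with 3 at an unadjusted p under 0.05 in edgeR. Adamts6, a close relative of Adamts10, had 5.43, 4.94, 4.06 and 4.46 CPM at 68 weeks, against 6.27, 7.83, 5.47 and 6.14 CPM at 12 weeks, with no overlap and a log2 fold change of -0.45 ± 0.13 SE (adjusted p = 0.109). Adamts7, which cleaves cartilage oligomeric matrix protein, was at -0.17 ± 0.11 SE (adjusted p = 0.445) and Adamts10, which binds fibrillin microfibrils, at -0.16 ± 0.07 SE (adjusted p = 0.247). Adamts12 had 2.25, 2.60, 2.77 and 1.90 CPM at 68 weeks, against 4.63, 2.51, 4.09 and 2.89 CPM at 12 weeks (log2 fold change -0.57 ± 0.21 SE, adjusted p = 0.19). Adamts19 was at -0.76 ± 0.36 SE (adjusted p = 0.295) and Adamts17 at -0.18 ± 0.22 SE (adjusted p = 0.695).

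Of the ADAMTS-like proteins, Adamtsl4, another microfibril protein, was at -0.07 ± 0.10 SE (adjusted p = 0.737), and Adamtsl1 lay below every 12-week library in all 4 libraries at 68 weeks, at -0.36 ± 0.13 SE (adjusted p = 0.173). Adamtsl2 was at -0.31 ± 0.15 SE (adjusted p = 0.307) and Adamtsl3 at 0.19 ± 0.09 SE (adjusted p = 0.285). Summed over the family, ADAMTS-like transcripts came to 44.1 ± 2.53 RPKM at 68 weeks and 37.9 ± 2.18 RPKM at 12 weeks, of which Adamtsl5 gave 26.3 and 19.3 RPKM. The library sums did not overlap, at 42.3 to 47.8 RPKM at 68 weeks and 34.8 to 39.9 RPKM at 12 weeks. Adamtsl5 already had no overlap on its own, so these sums are not a separate result. Of the 5 genes, 2 had a log2 fold change above 0 and 3 below 0.

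The genes that act around these proteases were taken from lists, given by counts. Of the 18 tested genes for activation and pericellular control, Pcsk5, a proprotein convertase that cleaves propeptides, was lower at 68 weeks. It had 4.80, 4.22, 4.71 and 4.94 CPM at 68 weeks, against 7.42, 7.54, 6.93 and 6.32 CPM at 12 weeks, with no overlap (log2 fold change -0.60 ± 0.09 SE, adjusted p = 0.0127, edgeR), and its adjusted p was 0.106 with airway markers in the model and ranged from 0.000273 to 0.534 over alternatives. Of those 18, 4 had an unadjusted p under 0.05, and DESeq2 called Cd44 and Pcsk5 lower. No gene passed in edgeR among 20 other proteases (ADAM, astacin and cathepsin genes), 18 proteoglycan and glycoprotein substrates and 10 cytokine signals, where 6, 5 and 2 genes had an unadjusted p under 0.05 and DESeq2 called 2, 2 and 1.

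Markers of the other cell types in the tissue were read beside these values, and their part in them was not tested. Of 12 adipocyte markers tested, 4 were lower in edgeR (Car3, Cidec, Cfd and Adipoq), 10 had an unadjusted p under 0.05 and DESeq2 called 8 lower, and the list summed to 683 to 1036 CPM at 68 weeks and 1140.0 to 2015 CPM at 12 weeks. Of 9 cartilage markers, Cnmd was higher in edgeR, 4 had an unadjusted p under 0.05 and DESeq2 called Comp, Cnmd and Sox9 higher, with sums of 30.3 to 50.5 CPM at 68 weeks and 25.9 to 50.7 CPM at 12 weeks. Of 12 macrophage markers, Cx3cr1 was lower in edgeR and in DESeq2 and 2 had an unadjusted p under 0.05, with sums of 252 to 282 CPM at 68 weeks and 259 to 291 CPM at 12 weeks. Endothelial, smooth muscle and mesothelial lists had 0 called in edgeR, with 2, 1 and 1 genes at an unadjusted p under 0.05 and DESeq2 calling 2, 0 and 1. Of 5 thymus and lymphocyte markers, Cd79a was lower in edgeR and in DESeq2 and 3 had an unadjusted p under 0.05, with sums of 1.73 to 2.68 CPM at 68 weeks and 1.63 to 7.19 CPM at 12 weeks.

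The authors' H3K27me3 lists hold the regions that their names mark as unique to an age, and they linked regions to 2 members. Mmp24 was linked in the 68-week list to a region of chromosome 2, positions 155642907 to 155643153, with the authors' score of 6.61, rank 481 of 3433 regions (median 4.77). Timp4 was linked in the 12-week list to a region of chromosome 6, positions 115225784 to 115226102, with a score of 6.13, rank 166 of 1164 (median 4.5). In all, 2.4% of genes were linked to a region listed at 68 weeks and 1.06% at 12 weeks. The coordinates are as deposited, with no build established for them, and no member called by age was linked. As deposited, neither region lay on the span of its gene, chr2:155775342-155818366 for Mmp24 and chr6:115241892-115252205 for Timp4. Of 2479 links to a counted gene, 20.6% placed the region on the span of that gene. A link is therefore not a mark shown at the gene. The lists give no value per library, so these are descriptions without a replicate error. The other 49 members had no linked region.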

How the data were processed

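Heart RNA was sequenced in 4 libraries at 68 weeks and 4 at 12 weeks. The deposited values are counts of reads per gene, not normalised, per the file headers, and the per-library files equal the series table in all 8. Submitters' processing notes name mm10 and, among others, Trimmomatic 0.36, STAR 2.5.2b, featureCounts (Subread 1.5.2), Bowtie2 2.4.2 and MACS3 3.0.0b1; strand and multi-mapping settings are not given in the sources used here. In the lists of H3K27me3 regions deposited by the authors, each region has a width, a linked gene and a score with no stated scale.

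The age test used edgeR 4.0.16 under R 4.3.3 (TMM, filterByExpr, quasi-likelihood test, Benjamini-Hochberg over 15947 genes, adjusted p at most 0.05), with age alone in the model. Log2 fold changes are 68 minus 12 weeks, and SE, the log2 fold change over the square root of F, is approximate. CPM and RPKM, list sums included, were computed from the counts on TMM-scaled library sizes, with the deposited exon lengths. Alternatives were DESeq2 1.42.0, other scaling, no filter, replicate number as a block, airway markers in the model (log2 of their sum per total counts, with and without Tppp3) or as sets of libraries, and leaving out each library. The test was tried on simulated data with larger changes than those called here and no airway split, so that trial does not cover the calls. Every pair of libraries of 1 age differed beyond sampling noise (chi-square per degree of freedom at least 17.4), and edgeR's common biological coefficient of variation came to 0.139.

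Named genes are all called members, the 4 TIMPs, in each role the 2 members highest per length and the smallest p, members linked to a region, and up to 4 called genes of each pathway list. Other members are given by their values where a group is described, and were chosen after their values were seen. The members and gene lists were chosen with earlier results of these data known. Results for some list genes and overlapping genes are not reported here.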

Additional observations from a re-analysis of the deposited data

Results flagged for a closer look

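In 6 of 54 groups of 4 libraries, 1 library stood apart by Dixon's gap criterion, which chance alone meets in about 1 in 20 groups. At 68 weeks, replicate 4 was the highest for Adamtsl5, at 146 CPM against 116 to 118 CPM for replicates 1 to 3. The same library was the highest for Adamts1, at 101 CPM against 80.0 to 80.8 CPM, and the lowest for Mmp24, at 0.268 CPM against 0.629 to 0.685 CPM. Replicate 2 at 68 weeks was the lowest for Mmp16, at 0.793 CPM against 1.26 to 1.35 CPM. At 12 weeks, replicate 2 was the highest for Mmp23, at 9.84 CPM against 6.66 to 7.15 CPM, and for Timp2, at 174 CPM against 153 to 154 CPM.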

How the results depend on the processing

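The 6 called members kept their sign under every alternative. For fits on fewer libraries this follows largely from the lack of overlap between the ages, and is not separate support. The counts of members called higher and lower, 3 and 3 among 39 tested, were 0 and 0 by edgeR with the replicate block, with airway markers in the model, with those other than Tppp3 (chosen after seeing the data), within the 4 libraries lowest in airway counts and within the 4 highest, where 17, 11, 10, 10 and 10 members had an unadjusted p under 0.05. Without single libraries they ranged from 0 to 3 and from 0 to 1. Same-numbered libraries had correlations of -0.24, -0.04, 0.04 and 0.33, and only replicate 4 correlated best with its own number. These few values do not settle whether replicate numbers pair the samples. Among pathway-list genes, 0 were called higher and 1 lower: 1 and 3 without a filter, 1 and 0 with the block, 3 and 5 by DESeq2, 0 and 2 on library size alone, and lower 0 with airway markers, with or without Tppp3, and in both sets of libraries. Without single libraries these counts were 0 to 1 and 1 to 2. Of the 39 tested members, 5 changed sign within the 4 libraries lowest in airway counts and 6 within the 4 highest. The reversals given next are those of the named genes alone. The log2 fold change reversed for Adamts3 at -0.0303 (library size alone), -0.0351 (airway markers in the model) and -0.43 (most airway counts), for Adamts3 at -0.0807 and Mmp9 at 0.00607 (airway markers other than Tppp3), for Adamtsl4 at 0.0505, Mmp15 at -0.0175, Mmp23 at -0.0134 and Mmp9 at 0.0397 (most airway counts), for Mmp23 at -0.0276 and Mmp24 at -0.0231 (library size alone) and for Mmp24 at -0.0564 (fewest). Leaving out a library gave -0.0587 to 0.141 for Adamts3, -0.138 to 0.0358 for Adamtsl4, -0.0344 to 0.179 for Mmp23, -0.0744 to 0.277 for Mmp24 and -0.485 to 0.1 for Mmp9. Depth left 12 members without a test. Where a set leaves 1 library of an age, that library is assumed to vary like the others. The causes of these changes were not tested.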
